A study of Homo sapiens with 14 samples.

Results

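Endothelial cells line blood vessels and are recognised by a set of receptors, junction proteins and transcription factors, of which 46 were examined here as a group chosen by name. They comprised 11 receptors and receptor ligands of the cell surface, 6 secreted proteins, 11 adhesion and junction proteins, 5 other surface or cytosolic proteins and 13 transcription factors. Of these, 44 of the 12202 genes listed in either comparison were found, all 44 under siRNA and 42 under the deletion. PECAM1 and JAM2 were listed in neither comparison, and SOX18 and PLVAP were listed for siRNA alone.

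The cells were teloHAEC, a telomerase-immortalised line of human aortic endothelial cells grown with VEGF. In the siRNA arm, 4 libraries of cells transfected with siRNA against CALCRL, the calcitonin receptor-like receptor, were compared with 4 of cells given scrambled siRNA, both taken after 24 hours. In the deletion arm, 3 libraries of cells electroporated with Cas9 and guides flanking an enhancer at the CALCRL locus were compared with 3 of cells given Cas9 and a guide against HPRT, both taken after 2 days. The control cells of the deletion arm were thus cut as well, at another gene. The question of both comparisons here was whether lowering CALCRL, through its transcript or through its enhancer, went with changes in the genes that define an endothelial cell. Nothing in the labels says that libraries of a group came from separate cultures, so p-values measure the spread between these libraries, which may be technical.

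The VEGF receptors KDR and FLT1, with the co-receptors NRP1 and NRP2, receive the main growth signal of vessels, while TEK and TIE1 receive the angiopoietins. CDH5, VE-cadherin, holds endothelial cells to each other and is anchored to the cytoskeleton through catenins, among them beta-catenin, the product of CTNNB1. Transcription factors of the ETS (ERG, FLI1, ETS1), SOX (SOX7, SOX17, SOX18), GATA and MEF2 families, with the TAL1, LYL1 and LMO2 group, direct the expression of endothelial genes.

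The authors' deposited tables give 1 mean normalised count per gene and arm, a log2 fold change with its standard error (SE), and a p-value adjusted over all genes of the table. They give no value for a single library, so the group means below are those that the mean count and the fold change imply, and overlap between libraries could not be examined. Libraries were read from the 3' end of transcripts, so a count does not grow with transcript length, and levels of different genes can be set side by side. A gene was called where the DESeq2 Wald test of the authors' deposited table gave an adjusted p-value under 0.05. In the siRNA arm 3.46% of 11261 genes were called, 1.05% higher and 2.42% lower. In the deletion arm 15.8% of 11830 genes were called, 7.4% higher and 8.44% lower. The target CALCRL was at a log2 fold change of -1.56 (SE 0.17) for siRNA and -1.47 (SE 0.43) for the deletion in the authors' deposited tables. HPRT1, the gene cut in the deletion controls, lay at -0.09 (SE 0.50) in the authors' deposited table.

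The genes were well expressed. In the authors' deposited table for siRNA their median of the mean normalised counts was 613, against 130 over all genes, and 39 of the 44 had a mean of at least 100. The highest means in that table were those of APLN (7385), MCAM (3995), ROBO4 (2063) and ECSCR (2035), and the lowest were those of PLVAP (11.3), SOX18 (16.7) and CD34 (27.0). Of 10 endothelial markers 9 were listed in each table, all but PECAM1, although VWF, the clotting factor carrier stored in endothelial cells, had means of only 42.0 and 18.7. None of 7 fibroblast markers and 1 of 7 blood cell markers were listed, and 3 of 7 smooth muscle markers were.

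Several surface genes were far lower after the deletion. CLEC14A, a C-type lectin of the endothelial surface, had the lowest Wald statistic of all genes of the table and was at 10.5% of the control. The lipid receptor S1PR1 was at 14.5%, the Eph receptor EPHB4 at 31.0% and CDH5 at 37.0%, and the transcriptional adaptor LMO2 was also lower. Of the 42 genes 9 were called, 8 lower and 1 higher, which is 21.4%, against 15.8% of all genes. Among genes with a mean count of at least 50 the shares were 22.5% of 40 endothelial genes and 22.2% of all, so the share called did not stand above that of well expressed genes. At an unadjusted p-value under 0.05 were 16 of the 42, against 29.7% of all genes. The median log2 fold change of the 42 genes, -0.09, lay close to the median of 0.00 over all genes. With a Student t reference, or with the Wald statistics divided by their robust SD of 1.88, 0 of the 42 were called, and 8 and 4 had an unadjusted p-value under 0.05.

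The promoters of the 3 genes with the lowest Wald statistics among these are shown from RefSeq (GRCh38.p14), each from 250 bases before to 50 bases after the start of the gene, because the largest reductions by the Wald test are theirs. Capitals mark GGAA and its reverse complement TTCC, the core that ETS factors bind.
CLEC14A (chr14:38256044-38256343, minus strand): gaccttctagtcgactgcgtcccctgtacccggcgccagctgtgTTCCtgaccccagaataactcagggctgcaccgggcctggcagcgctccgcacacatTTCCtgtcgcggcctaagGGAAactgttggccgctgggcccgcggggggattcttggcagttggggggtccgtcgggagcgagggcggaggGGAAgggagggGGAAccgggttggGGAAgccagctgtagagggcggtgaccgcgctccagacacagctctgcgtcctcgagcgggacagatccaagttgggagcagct
S1PR1 (chr1:101236769-101237068, plus strand): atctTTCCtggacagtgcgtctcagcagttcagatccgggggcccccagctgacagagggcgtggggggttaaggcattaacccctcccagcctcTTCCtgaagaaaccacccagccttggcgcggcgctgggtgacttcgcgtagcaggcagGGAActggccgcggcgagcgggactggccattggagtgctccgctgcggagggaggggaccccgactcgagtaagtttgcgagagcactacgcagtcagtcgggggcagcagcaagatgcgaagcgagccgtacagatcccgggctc
EPHB4 (chr7:100827474-100827773, minus strand): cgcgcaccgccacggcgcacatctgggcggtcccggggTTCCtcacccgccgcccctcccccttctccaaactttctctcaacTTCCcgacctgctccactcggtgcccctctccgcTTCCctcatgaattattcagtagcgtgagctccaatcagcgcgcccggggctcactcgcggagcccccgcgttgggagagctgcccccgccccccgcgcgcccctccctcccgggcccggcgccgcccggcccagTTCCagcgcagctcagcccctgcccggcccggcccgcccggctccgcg
The core was found 6 times in CLEC14A, 3 times in S1PR1 and 4 times in EPHB4, on either strand. It occurs in 95.4% of the 8646 promoters of listed genes, with a median of 3 matches, and 17.9% of them hold 6 or more. Promoters were found for 30 of the 44 genes, and 27 of the 30 hold the core, again with a median of 3. The GATA word AGATAA, on either strand, was found in 4 of the 30 and in 4.87% of all. Matches describe the letters of these windows and not sites that are bound.

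Among the receptors, 3 of 11 were lower and none higher in the deletion arm, against 8.44% and 7.4% of all genes. Of all genes with a mean of at least 50, 22.2% were called in either direction. S1PR1, which senses sphingosine 1-phosphate and steadies the endothelial barrier, had implied means of 723 normalised counts in the control and 105 in the deletion group. Its log2 fold change in the authors' deposited table was -2.79 (SE 0.52, adjusted p 1.44e-05), and the 95% interval ran from 7.17% to 29.2% of the control. EPHB4, the venous receptor for ephrin-B2, fell from an implied 469 to 145, at -1.69 (SE 0.38, adjusted p 0.000501) in the authors' deposited table. Its ligand EFNB2 was at 0.54 (SE 0.47) in the same deposited table and not called. KDR, the main VEGF receptor, fell from an implied 456 to 220 counts, and was at -1.05 (SE 0.31, adjusted p 0.00966) in the authors' deposited table. The other VEGF receptor, FLT1, was at 0.46 (SE 0.27, adjusted p 0.236) in that deposited table.

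The angiopoietin receptors did not pass the test after the deletion. In the authors' deposited table TEK was at -0.49 (SE 0.27) and TIE1 at 0.09 (SE 0.20). The guidance receptor ROBO4 was at 0.27 (SE 0.19) there, and the co-receptors NRP1 and NRP2 were at -0.07 and -0.10 (SE 0.20 and 0.21). ENG, a co-receptor for TGF-beta family ligands, was at 0.59 (SE 0.35) in the same authors' deposited table. The intervals of NRP1, NRP2, TIE1 and ROBO4 lay within a log2 change of 1 in either direction.

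**Figure D1:**
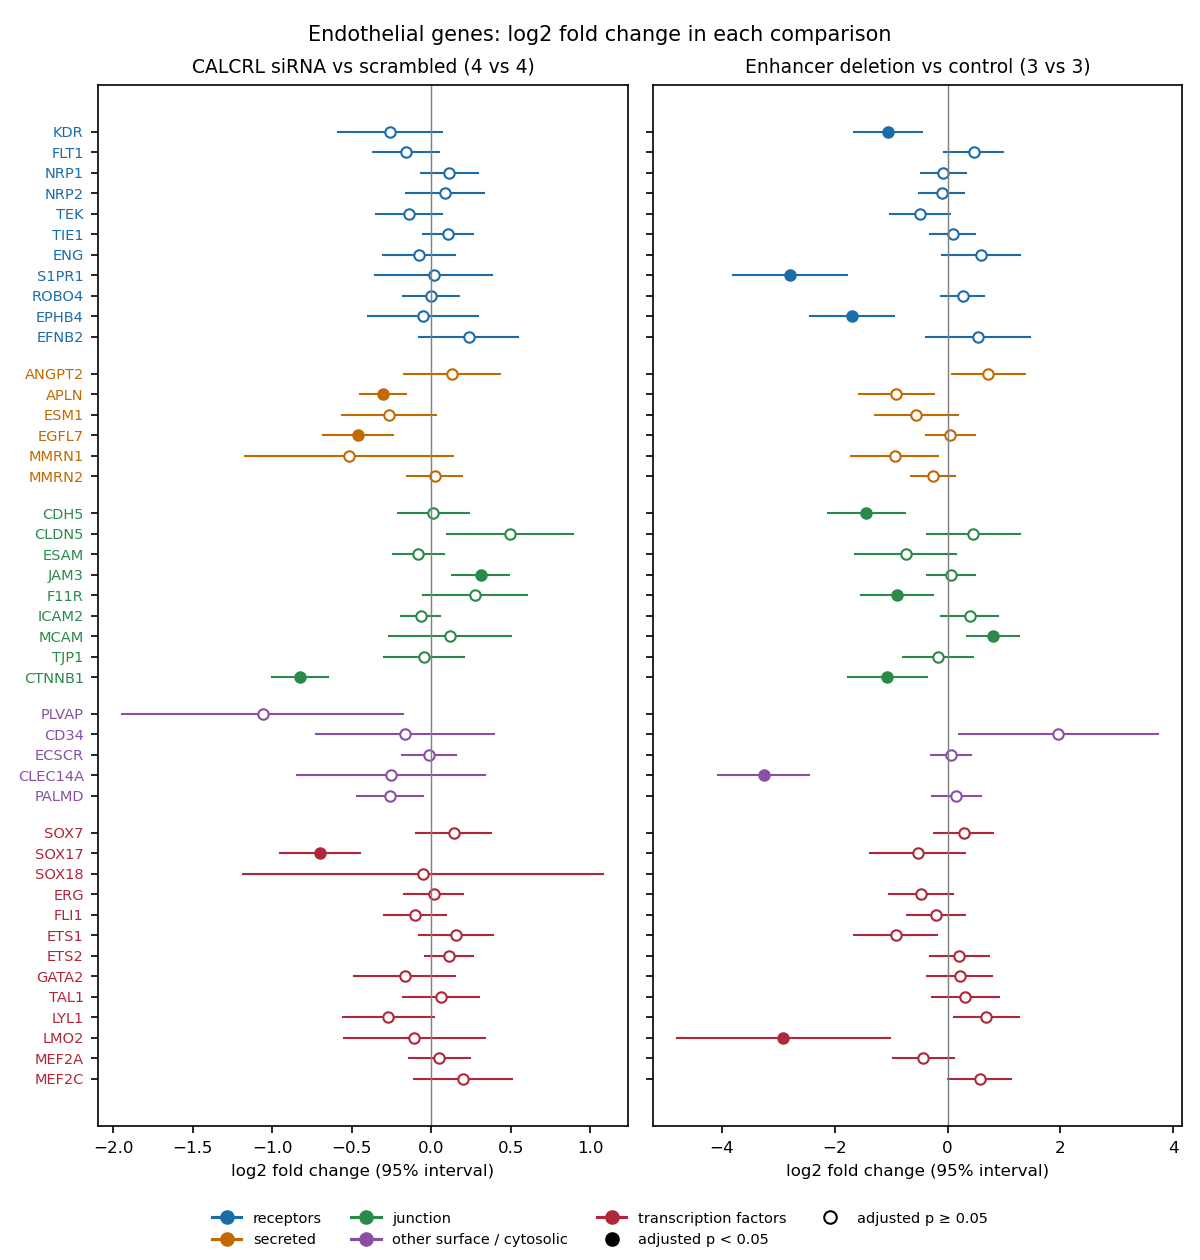
Log2 fold change (horizontal axis) of each of the 44 endothelial genes in the siRNA arm (left, 4 against 4 libraries) and the deletion arm (right, 3 against 3), with 95% intervals as lines. Filled points have an adjusted p-value under 0.05: 5 genes for siRNA and 9 for the deletion, where the intervals are wider and CLEC14A, LMO2 and S1PR1 lie farthest to the left.

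Junction genes moved in both directions after the deletion, with 3 of 9 lower and 1 higher, against the same 8.44% and 7.4%. The share called either way among genes with a mean of at least 50 was again 22.2%, and 9 genes are few. CDH5 had implied means of 1375 counts in the control and 508 in the deletion group. In the authors' deposited table it was at -1.44 (SE 0.35, adjusted p 0.00142), with an interval from 23.1% to 59.2% of the control. Its partner CTNNB1 was at -1.06 (SE 0.36, adjusted p 0.0272), and F11R, which encodes junctional adhesion molecule A, was at -0.90 (SE 0.33, adjusted p 0.0403), both in the authors' deposited table. MCAM, an adhesion molecule of the immunoglobulin family, rose from an implied 5327 to 9283 counts, at 0.80 (SE 0.24, adjusted p 0.00998) in the authors' deposited table. The exons of EPHB4 overlap those of SLC12A9, and those of MCAM overlap CBL, on the opposite strand. In the authors' deposited table SLC12A9 was at -0.36 (SE 0.32) and CBL at 0.06 (SE 0.29), neither called. Whether counting used the strand is not given in the sources used here.

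The other junction genes were not called in the deletion arm. ESAM, a tight junction adhesion molecule, was at -0.74 (SE 0.46) and the tight junction claudin CLDN5 at 0.45 (SE 0.42) in the authors' deposited table. In that authors' deposited table ICAM2 was at 0.39 (SE 0.26), JAM3 at 0.07 (SE 0.22) and TJP1, the scaffold ZO-1, at -0.17 (SE 0.31).

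CLEC14A, which takes part in vessel sprouting, fell from an implied 521 to 54.5 normalised counts after the deletion. Its log2 fold change in the authors' deposited table was -3.26 (SE 0.41, adjusted p 2.33e-11), with an interval from 5.99% to 18.3% of the control. In the siRNA arm the SE of CLEC14A was 2.77 times the usual SE at its mean count. Such an SE, over 2 times that of its peers, was found in 216 genes tested in both arms, of which 67.1% were called lower after the deletion, against 7.74% of the other genes. The secreted platelet and endothelial protein MMRN1, with a ratio of 2.38, was the only other one of the 42, at -0.94 (SE 0.39, adjusted p 0.0802) in the authors' deposited table of the deletion arm. The ratio was 1.74 for S1PR1 and 1.60 for EPHB4, and between 0.87 and 1.38 for CDH5, LMO2, F11R, KDR and CTNNB1. MCAM, which rose, had a ratio of 1.91. The part of this spread in the result was not tested. Without the 216 genes, 8 of 40 endothelial genes were called, 7 lower and 1 higher, against 14.3% of all genes left.

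**Figure D2:**
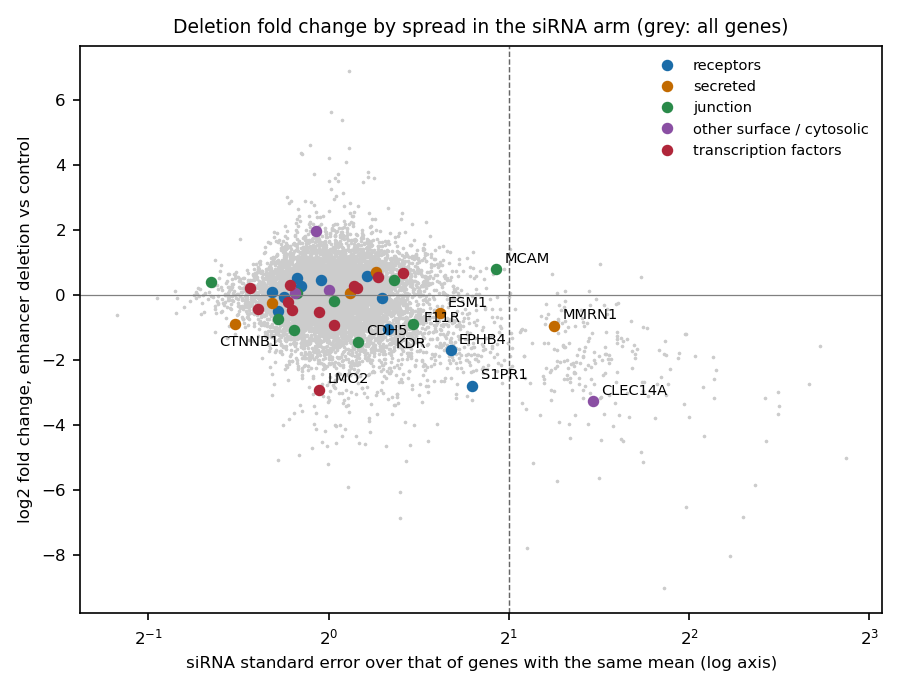
Log2 fold change after the deletion (vertical axis) against the siRNA standard error relative to the usual one at that mean count (horizontal, log axis, dashed line at 2), for all genes tested (grey) and the endothelial genes (coloured by role). CLEC14A and MMRN1 lie to the right of the line, in a cloud of genes that are mostly lower, and CDH5, KDR and LMO2 lie to the left of it.

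Of the remaining surface and cytosolic genes, CD34 had a mean of only 17.1 counts and was at 1.96 (SE 0.90, adjusted p 0.117) in the authors' deposited table of the deletion arm. ECSCR and PALMD were at 0.05 and 0.16 (SE 0.18 and 0.22) in that authors' deposited table. No secreted gene of the 6 was called after the deletion, against 15.8% of all genes, and 6 are too few to tell these shares apart. With the GC trend removed 2 were called, as given below. APLN, the ligand of the apelin receptor, fell just outside the threshold at -0.90 (SE 0.34, adjusted p 0.0502) in the authors' deposited table. The vessel protein MMRN2 was at -0.26 (SE 0.20) there. The TEK ligand ANGPT2 was at 0.72 (SE 0.33, adjusted p 0.115) and the tip cell product ESM1 at -0.55 (SE 0.38) in the authors' deposited table.

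Of 12 lineage transcription factors 1 was called after the deletion, a lower one, or 8.33%, close to the 8.44% of all genes called lower. This was LMO2, the adaptor that joins TAL1 or LYL1 to GATA factors, at -2.91 (SE 0.96, adjusted p 0.0239) in the authors' deposited table. Its implied means were only 43.7 and 5.82 counts, and its interval ran from 3.61% to 49.2% of the control. Of its partners in the authors' deposited table, LYL1 was at 0.69 (SE 0.30, adjusted p 0.0901), TAL1 at 0.32 (SE 0.31) and GATA2 at 0.21 (SE 0.29). The ETS factor ERG was at -0.47 (SE 0.29, adjusted p 0.274) in the authors' deposited table, FLI1 at -0.20 (SE 0.26) and ETS1 at -0.92 (SE 0.38, adjusted p 0.0745). SOX17, an arterial factor, was at -0.53 (SE 0.43) and SOX7 at 0.29 (SE 0.27) in the same authors' deposited table. ETS2, MEF2A and MEF2C lay between -0.43 and 0.57 there.

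The deletion fold changes moved with base composition over all genes. The Spearman correlation of log2 fold change with the GC content of the last 500 transcript bases was 0.30 over all genes, and 0.27 over the 42, which are not independent replicates. CDH5, with a GC content of 60.4%, was lower, whereas genes with at least 50% GC had a median of 0.43, and with the GC trend removed it was at -1.97 (adjusted p 3.58e-06). KDR was then at -0.85 (0.0455), CLEC14A at -3.14, S1PR1 at -2.50 and EPHB4 at -1.76. CTNNB1 was at -0.79 and no longer called (0.126). EGFL7 turned from 0.05 to -0.63 (0.0425) and ANGPT2 reached 0.92 (0.0465). In all 9 of the 42 signs turned, also those of NRP1, NRP2, TIE1, CLDN5, ICAM2, TJP1, FLI1 and LYL1, none of these called either way. With the GC content of the whole transcript in its place, MCAM was at 0.59 (0.0721), F11R at -0.82 (0.0711) and CTNNB1 at -0.97 (0.0514), none of them called. With the trend on the last 500 bases removed the count was 10, 8 lower and 2 higher, against 12.4% of all genes. With that of the whole transcript it was 9, 7 lower and 2 higher, against 13.3%, with APLN, ANGPT2 and MEF2C among them.

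**Figure D3:**
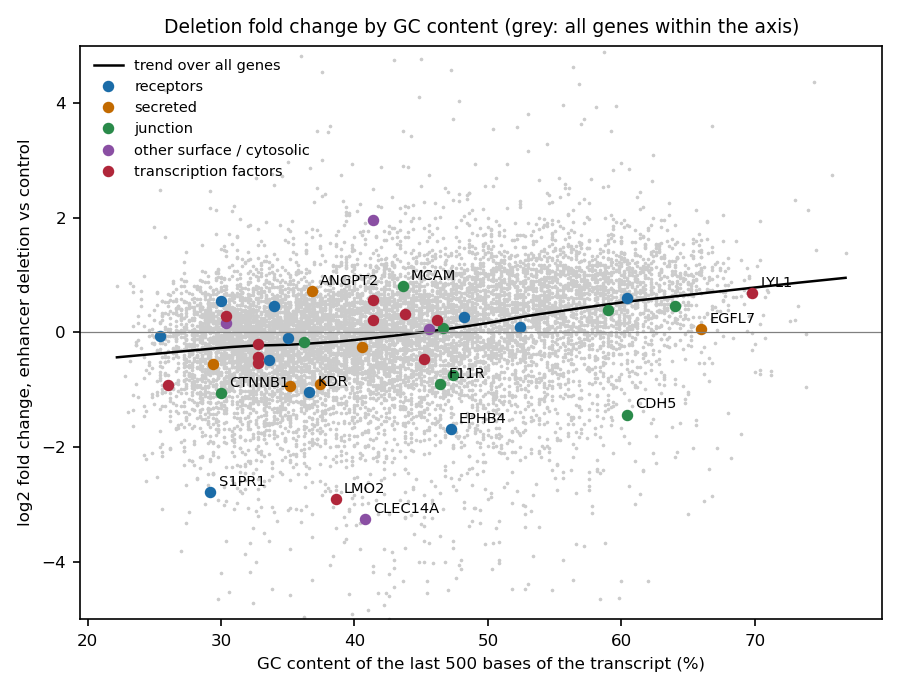
Log2 fold change after the deletion (vertical axis) against the GC content of the last 500 bases of the transcript in percent (horizontal axis), for all genes within the axis range (grey), with the trend over all genes (black line) and the endothelial genes coloured by role. CDH5 at 60.4% GC lies far below the line, while EGFL7 and LYL1 lie below or near it at 66.0% and 69.8%.

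Under siRNA the junction and signalling gene CTNNB1, the factor SOX17 and the secreted genes EGFL7 and APLN were lower and JAM3 was higher, while no receptor of the 11 was called. This is 5 of 44 genes, or 11.4%, against 3.46% of all genes. The 44 were chosen with earlier results of these data known, so such shares describe them and do not test the group. The median log2 fold change of the 44 was -0.05, against 0.00 over all genes, and 25 of the 44 values were below 0. At an unadjusted p-value under 0.05 were 8 of the 44, against 12% of all genes. Among genes with a mean of at least 50 the share called was 12.5% of 40, against 4.71%, and with the GC trend removed 5 were called, against 3.26%. With a Student t reference 0 were called and 6 had an unadjusted p-value under 0.05.

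CTNNB1 had the lowest Wald statistic of the 44. It fell from an implied 1172 normalised counts with scrambled siRNA to 661 with CALCRL siRNA, that is to 56.4% of the control with a 95% interval of 49.95% to 63.6%. The log2 fold change of CTNNB1 in the authors' deposited table was -0.83 (SE 0.09, adjusted p 2.27e-17), and only 8 of 11261 genes, CTNNB1 included, had a Wald statistic as low. SOX17 fell from an implied 277 to 170 counts, at -0.70 (SE 0.13, adjusted p 1.02e-05) in the authors' deposited table. Its relatives SOX7 and SOX18 were at 0.14 (SE 0.12) and -0.05 (SE 0.58) in that authors' deposited table, neither called.

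The secreted genes EGFL7 and APLN were also lower under siRNA. EGFL7, a matrix protein of vessels and host gene of a microRNA, was at -0.46 (SE 0.11, adjusted p 0.00213) in the authors' deposited table. APLN, the most abundant of the 44, fell from an implied 8163 to 6607 counts, at -0.30 (SE 0.07, adjusted p 0.00192) in the authors' deposited table. JAM3, a junctional adhesion molecule, rose from an implied 700 to 867 counts, at 0.31 (SE 0.09, adjusted p 0.0221) in the authors' deposited table. Its exons overlap those of NCAPD3 on the opposite strand, which was at -0.25 (SE 0.17) in that authors' deposited table.

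**Figure D4:**
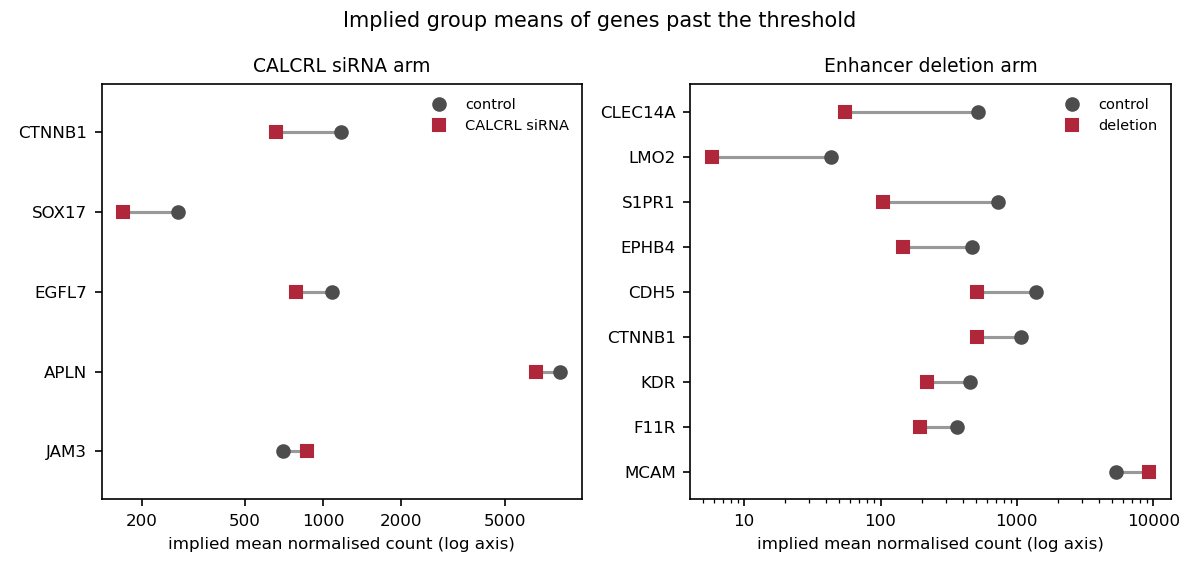
Implied mean normalised count (horizontal log axis) in the control group (circles) and the treated group (squares) for the genes past the threshold in each arm, 5 for siRNA (left) and 9 for the deletion (right), computed from the deposited mean and fold change, with no spread between libraries. CTNNB1 moves from 1172 to 661 under siRNA and CLEC14A from 521 to 54.5 after the deletion.

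Among the 39 genes not called under siRNA, the log2 fold changes lay between -1.06 for PLVAP and 0.49 for CLDN5, and those of the 11 receptors between -0.26 and 0.24. In the authors' deposited table KDR was at -0.26 (SE 0.17), FLT1 at -0.16 (SE 0.11), TEK at -0.14 (SE 0.11) and TIE1 at 0.10 (SE 0.08). CDH5 was at 0.01 (SE 0.11) in that authors' deposited table, a sign that turned when the GC trend was removed, and its interval ran from 86.3% to 118% of the control. ERG was at 0.01 (SE 0.10), FLI1 at -0.10 (SE 0.10) and ETS1 at 0.16 (SE 0.12) in the authors' deposited table. CLDN5 was at 0.49 (SE 0.20) and PLVAP, the diaphragm protein of fenestrae and caveolae, at -1.06 (SE 0.45) in the authors' deposited table. Their adjusted p-values there were 0.213 and 0.244. Of the 39, 36 had a 95% interval within a log2 change of 1 in either direction. The same held for 18 of the 33 genes not called in the deletion arm, where the median SE of these genes was 0.30, against 0.12 for siRNA.

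A word of 7 bases, GTAACAA, is frequent in the 3' UTRs of genes that were lower under this siRNA, and was chosen in earlier work on the same values. With the transcripts of GENCODE 29, it was found in 56.4% of the 266 genes called lower that have a 3' UTR, and in 10.7% of all 10650. Of the 44 endothelial genes 3 carried it, CTNNB1 at 2 places and ESM1 and MEF2A at 1 each. The sites are shown because CTNNB1 is the lowest of the 44 by its Wald statistic, with the word in capitals.
CTNNB1, first site: ttggtcgaggaGTAACAAtacaaatggatt
CTNNB1, second site: ctgaataaagtGTAACAAttgtgtagcctt
ESM1: tggaaatttgaGTAACAAacagctttgaac
MEF2A: acactgaccaaGTAACAAtgtattccattt
ESM1 was at -0.27 (SE 0.15, adjusted p 0.502) and MEF2A at 0.05 (SE 0.10) under siRNA in the authors' deposited table, neither called. The other genes lower under siRNA, SOX17, EGFL7 and APLN, held no copy in the 3' UTR used. At least 2 copies were found in 155 of the 10650 genes, or 1.46%, whose median log2 fold change under siRNA was -0.20. The part of the word in the change of CTNNB1 was not tested.

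The arms share no libraries, so the difference between their log2 fold changes was tested for each gene, with a normal reference and adjustment over 10891 genes, of which 13.7% passed. Of 42 endothelial genes 8 passed, or 19.0%, and 7 of these had the lower value in the deletion arm. Among genes with a mean of at least 50 in both arms, 7 of 40 passed, or 17.5%, which was below the 19.1% of all such genes. The differences, siRNA minus deletion, were 3.00 (SE 0.51) for CLEC14A, 2.80 (SE 0.55) for S1PR1, 2.80 (SE 0.99) for LMO2 and 1.64 (SE 0.42) for EPHB4. CDH5 differed by 1.45 (SE 0.36), F11R by 1.17 (SE 0.37) and ETS1 by 1.07 (SE 0.39), while LYL1 differed by -0.96 (SE 0.33). With the GC trend removed LYL1 differed by only -0.20 (adjusted p 0.75), ETS1 by 0.73 (0.22) and LMO2 by 2.64 (0.0593), so that these 3 no longer passed. In that setting 6 of the 42 passed, against 11.3% of all genes. KDR differed by 0.79 (SE 0.35), with an adjusted p-value of 0.107. The arms also differ in delivery, time and control, which cannot be told apart from the target of the treatment.

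In the deposited values CTNNB1 was the only one of the 42 genes called in both arms, against 0.432% of all genes tested in both. This depended on the setting. With the GC trend removed CTNNB1 was not called in the deletion arm (adjusted p 0.126). EGFL7 was then called lower in both arms (adjusted p 0.00127 for siRNA and 0.0425 for the deletion). The deposited values of CTNNB1 differed by 0.24 (SE 0.37, 95% interval from -0.49 to 0.96), with an adjusted p-value of 0.713. For SOX17 and EGFL7 the differences were -0.17 (SE 0.45) and -0.51 (SE 0.25), neither past the threshold. Over the 42 genes the log2 fold changes of the arms had a Spearman correlation of 0.32, against 0.02 over all genes, given as a description. Of the 42, 54.8% had the same sign, against 51.1% of all genes.

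**Figure D5:**
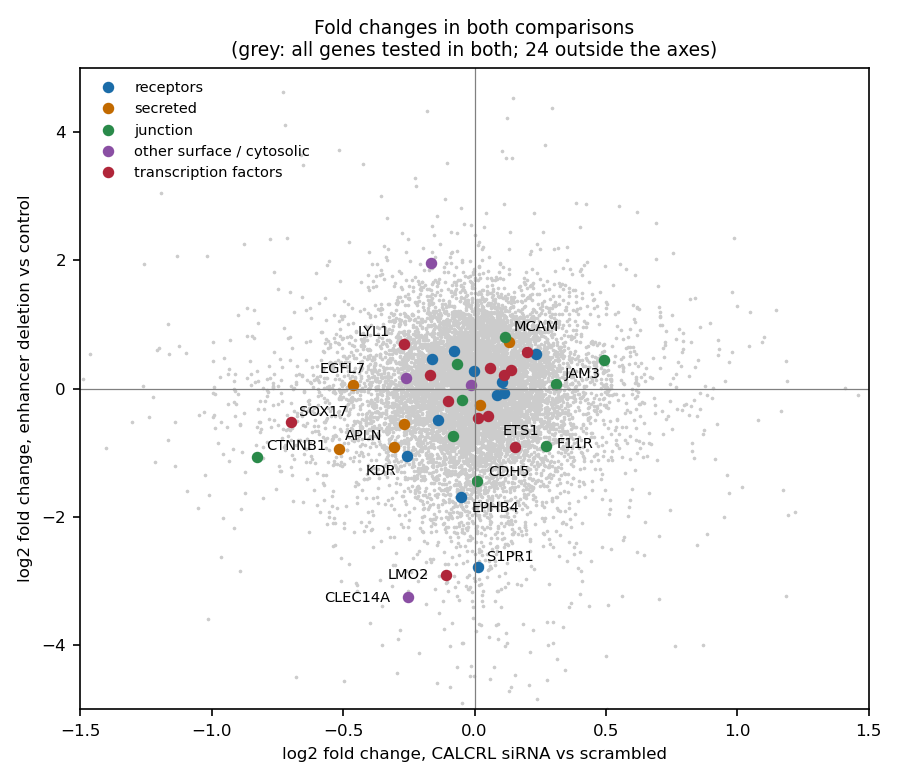
Log2 fold change after the enhancer deletion (vertical axis) against that under CALCRL siRNA (horizontal axis) for all genes tested in both arms (grey, 24 beyond the axes) and the 42 endothelial genes coloured by role, with names for those past a threshold. CTNNB1 is low on both axes, and CLEC14A, LMO2 and S1PR1 are low on the vertical axis alone.

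Genes that work with these proteins were examined in 5 lists of 128 genes. The 23 listed adherens and tight junction partners held 6 called genes in the deletion arm, 5 lower and 1 higher, or 26.1%, against 15.8% of all genes and 22.2% of those with a mean of at least 50. Under siRNA none was called, and 2 had an unadjusted p-value under 0.05. Lower in the authors' deposited table of the deletion arm were the gap junction gene GJA1 (-1.99, SE 0.31), RAP1A (-1.67, SE 0.32), JUP (-1.61, SE 0.59), HEG1 (-1.07, SE 0.31) and CTNND1 (-0.75, SE 0.27). Plakoglobin, the product of JUP, and p120-catenin, that of CTNND1, bind the tail of VE-cadherin as beta-catenin does. RASIP1, a partner of RAP1 at junctions, was higher at 1.46 (SE 0.36) in the authors' deposited table.

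Of 19 VEGF and angiopoietin signalling genes, 2 were higher and 2 lower after the deletion, VASH1 and SH2D2A against NCK2 and SPRY2, where 7.4% of all genes were higher and 8.44% lower. With the GC trend removed 3 were called, all lower. Under siRNA 3 of 20 were lower, the matrix proteins HSPG2 (-0.72, SE 0.15) and THBS1 (-0.51, SE 0.09) and the secreted ANGPTL4 (-0.63, SE 0.12) in the authors' deposited table. The other Eph receptors and ephrins held 2 lower genes of 8 in the deletion arm, EPHA2 (-1.66, SE 0.59) and EFNA5 (-1.02, SE 0.27) in the authors' deposited table, and none under siRNA. The siRNA SE of EPHA2 was high, 0.43 at a mean of 247, against 0.16 for MEF2C at a mean of 245. Genes with a high siRNA SE were mostly lower after the deletion, as given above, and its part in EPHA2 was not tested. Over the 5 lists together 22 genes were called after the deletion, 15 lower and 7 higher, or 21.8%. The share was 15.8% of all genes and 22.2% of those with a mean of at least 50. CALCRL, the target of both arms, was among the 22 and tells nothing about the lists. With the GC trend removed 17 were called, 14 lower and 3 higher, against 12.4% of all genes. Under siRNA 6 of 102 were called, all lower, or 5.88%, against 3.46% of all genes called and 2.42% lower. Of genes with a mean of at least 50, 4.71% were called. The 6 include CALCRL itself, whose call was set by the treatment. Also among them were HEY2 (-0.74, SE 0.14) and EDN1 (-0.37, SE 0.10) in the authors' deposited table.

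Markers of other cell types were set beside the deletion values. The 3 listed keratins of the 6 epithelial markers had a summed implied mean of 4034 counts in the control and 7116 in the deletion group, and 1 of them, KRT18, was called at 1.13 (SE 0.30) in the authors' deposited table. Their median GC content was 53.6%. The median log2 fold change of the 3 was 0.77, and 0.47 with the GC trend removed, where 1 was called. EPCAM, CDH1 and CLDN4, which define epithelial cells, were looked for and were listed in neither arm, for a reason that is not given. The summed implied mean of 9 endothelial markers was 6671 in the control and 4752 after the deletion, and 7265 and 6978 in the siRNA arm. The 9 did not move together after the deletion: 5 were below 0 and 4 above (TIE1, CLDN5, EGFL7 and VWF), and the called ones were CDH5 and KDR. In bulk RNA, fewer cells of a type and less RNA per cell cannot be told apart. The part of these markers in the deletion values was not tested.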

How the data were processed

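The measurements were 3' mRNA-seq counts (86 cycles, single end) of 14 libraries from an established cell line. The submitters' processing notes name hg19 and edgeR 3.24.3, with no role given; the aligner and annotation are not given in the sources used here. Per the file headers, the authors compared featureCounts gene counts with DESeq2 and deposited mean normalised counts, log2 fold changes with standard errors, Wald statistics (a score) and p-values, with no value per library. Depth per library is therefore unknown. The members and gene lists were chosen with earlier results of these data known. Called genes, and 13 fixed ones, are named with full values.

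Deposited statistics equalled the fold change over its SE, and the adjusted p-values a Benjamini-Hochberg adjustment, within rounding. From them 95% intervals, group means implied by equal group sizes, and differences between arms were computed (Python 3.11.15, scipy 1.17.1), and the count test that had been planned could not be run. GC content and 3' UTRs came from GENCODE 29 (GRCh38), matched by gene ID for 11099 siRNA and 11630 deletion genes, from the transcript with the longest 3' UTR. The GC trend was a lowess fit of span 0.3 (statsmodels 0.14.6). The SE expected at a mean count was a running median over 301 genes. The computation of the deletion calls, the difference between arms, the GC trend removal, the robust SD and the SE ratio was checked on simulated data. For the calls and the difference, fold changes were drawn with the deposited SE as their true spread. Those simulations therefore could not show whether the deposited SE is too small.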

Additional observations from a re-analysis of the deposited data

Results flagged for a closer look

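For 8 genes the effects under siRNA and after the deletion differed by a direct test, adjusted over all genes tested in both arms. The differences, siRNA minus deletion on the log2 scale, were 3.00 for CLEC14A (adjusted p-value 4.66e-06), 2.80 for S1PR1 (8.64e-05), 2.80 for LMO2 (0.0384) and 1.64 for EPHB4 (0.00336). They were 1.45 for CDH5 (0.00305), 1.17 for F11R (0.0185), 1.07 for ETS1 (0.0479) and -0.96 for LYL1 (0.0329). ETS1 and LYL1 were called in neither arm alone. With the GC trend removed LMO2 (2.64, adjusted p 0.0593), ETS1 (0.73, 0.22) and LYL1 (-0.20, 0.75) no longer passed. With the statistics of the difference scaled to a robust SD, 0 of the 42 genes passed, and 4 had an unadjusted p-value under 0.05.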

How the results depend on the processing

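No paired analysis was possible because values of single libraries are not in the tables used here, and leaving out each replicate was not run for the same reason. With a Student t reference 0 of the endothelial genes were called in either arm and 0 differed between arms, with 6, 8 and 8 at an unadjusted p-value under 0.05. Over all genes that reference left 5 siRNA calls and 0 deletion calls, so this loss is not particular to these genes. Division of the Wald statistics by their robust SD (1.11 for siRNA, 1.88 for the deletion) left 4 siRNA genes, 0 deletion genes and 0 differences, with 4 deletion genes and 4 differences at an unadjusted p-value under 0.05. A Benjamini-Yekutieli adjustment left 4 deletion genes. The other alternatives gave 4 or 5 siRNA genes, 6 to 10 deletion genes and 6 or 7 differences. Without the trend on GC content of the last 500 bases, CDH5 under siRNA was at -0.0054, and in the deletion arm TIE1 was at -0.17, EGFL7 at -0.63, CLDN5 at -0.17, FLI1 at 0.030 and LYL1 at -0.089, each with its sign turned, as were NRP1, NRP2, ICAM2 and TJP1 (0.30, 0.11, -0.10 and 0.03). Removal over the whole transcript also turned CDH5 under siRNA (-0.0051) and, after the deletion, TIE1 (-0.31), EGFL7 (-0.57) and CLDN5 (-0.057), with NRP1 (0.07), ROBO4 (-0.07) and GATA2 (-0.15), and ended the deletion calls of MCAM, F11R and CTNNB1. The same removal added deletion calls of APLN (-1.11, adjusted p 0.0166), ANGPT2 (0.97, 0.0318) and MEF2C (0.81, 0.0369). The whole-transcript trend and leaving out genes with a high siRNA standard error were chosen after the data were seen.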
